A study of Arabidopsis thaliana with 2 samples.

Results

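Sulfur enters plant metabolism as sulfate, and the genes described here are 4 enzymes of its activation and reduction and 5 markers of sulfur shortage in Arabidopsis thaliana (thale cress). They are the APS reductases APR1 (AT4G04610), APR2 (AT1G62180) and APR3 (AT4G21990), the ATP sulfurylase APS3 (AT4G14680), the small proteins LSU1 (AT3G49580), LSU2 (AT5G24660) and LSU3 (AT3G49570) and the sulfur deficiency induced proteins SDI1 (AT5G48850) and SDI2 (AT1G04770). The genes were chosen by name and locus for their role in sulfur metabolism, 9 loci of the 27336 counted. Earlier results of these data were known when they were chosen. Leaves were compared between wild-type plants of the Columbia ecotype and the mutant line atpip1;2-1 of the same ecotype, which lacks normal amounts of PIP1;2, an aquaporin of the plasma membrane. Both genotypes were grown on soil to an age of 3 weeks in a 12 h day, and the sulfate supply is not given in the labels. Each genotype was represented by 1 library from the pooled leaves of 10 plants, the mutant by 1 line, so no difference has a replicate check.

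ATP sulfurylase joins sulfate to ATP and gives adenosine 5'-phosphosulfate, abbreviated APS like the enzyme. APS reductase reduces this compound to sulfite in the plastid and is a main control point of the pathway. Sulfite reductase and the cysteine synthesis enzymes then complete the path to cysteine, while APS kinase diverts APS to sulfation reactions such as glucosinolate synthesis. When sulfur runs short, plants typically raise APR, LSU and SDI transcripts, high-affinity sulfate transporters and the microRNA miR395, under partial control of the transcription factor SLIM1.

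Totals were 4079098 reads for wild-type and 4041759 for mutant leaves. Sequencing covered transcript 3' ends, and levels are given in CPM, the read count scaled to the TMM-adjusted library size. All intervals are at the 95% level and cover counting error only. A gene with at least 20 reads over both libraries was tested, and it was called when its reads differed by the two-sided exact binomial test at an adjusted p under 0.05 and by at least 2-fold. This test compares the libraries and not the genotypes. PIP1;2 fell from 4211 reads to 566 in the mutant library (log2 ratio -2.95, -3.08 to -2.83), which follows the labels. As for the leaf label, all 5 mesophyll markers were read, at a summed 73956 CPM in the wild-type library and 64253 CPM in the mutant library. The 3 root markers held 11 and 16 reads, with EXPA7 at 0 in both, and the 4 flower and seed markers held 3 and 1, with AP3 and CRU3 at 0 in both. Guard cell markers summed to 33.2 and 30.9 CPM and phloem companion cell markers to 269.8 and 245 CPM. In pooled leaves, fewer cells of a type and less RNA per cell cannot be told apart.

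Of the 9 genes 8 had enough reads to be tested, 1 was called higher in the mutant library and 0 were called lower. Over all 15111 tested genes 1.3% were called higher and 1.1% lower, 2.4% in all. The called gene was LSU1. The 7 others had log2 ratios (mutant over wild type) from -0.17 for APR2 to 0.29 for SDI2, and none of them passed the exact test at any fold, where 14.1% of all tested genes did. The ratios of the 8 tested genes were positive in 4 and negative in 4, with a median of -0.00, which is also the median of all tested genes.

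**Figure D1:**
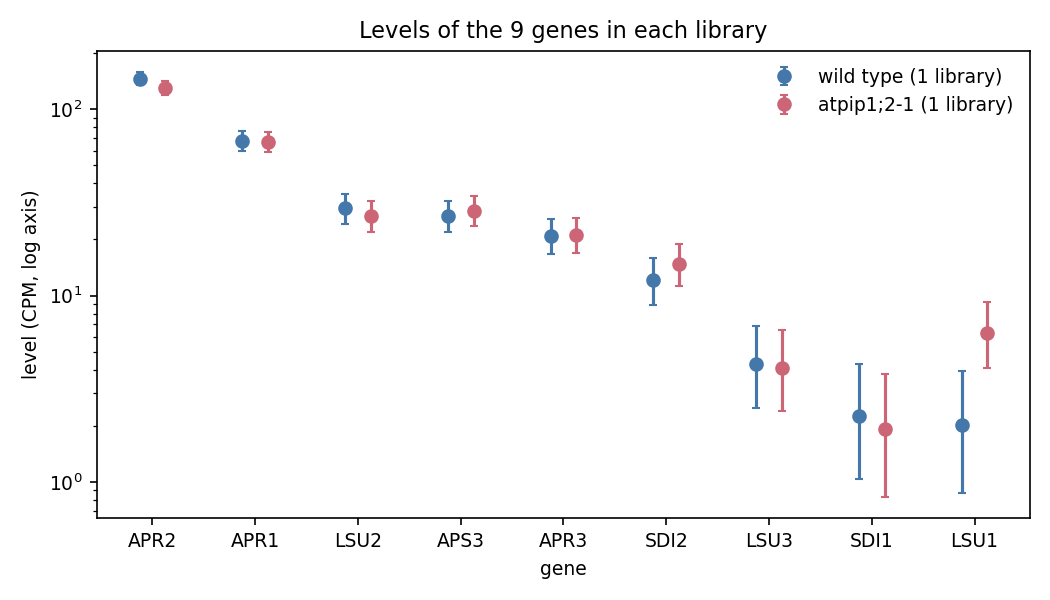
Level of each of the 9 genes in CPM on a log axis, in the wild-type library (blue) and the atpip1;2-1 library (red), with 95% Poisson intervals of counting error; genes are ordered by the wild-type level. The intervals of the libraries overlap for every gene except LSU1, which goes from 2.01 CPM to 6.28 CPM.

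APR2 and APR1 had the highest levels of the set by CPM, while APR3 was below LSU2 and APS3 in both libraries, with overlapping intervals. APR2, which accounts for most APS reductase activity in leaves, had 581 reads in wild-type and 537 in mutant leaves, or 146 CPM (134 to 158) and 130 CPM (119 to 141). Its log2 ratio was -0.17 (-0.34 to 0.00, adjusted p = 0.217 by the exact binomial test), so the mutant level lay between 0.789 and 1.00 times the wild-type level as far as counting error goes. APR1 had 270 and 277 reads, 67.8 CPM (60.0 to 76.4) and 66.9 CPM (59.2 to 75.2), for a log2 ratio of -0.02 (-0.27 to 0.23). APR3, the isoform grouped with the O-acetylserine responsive markers, had 83 and 87 reads, 20.8 and 21.0 CPM, with a log2 ratio of 0.01 (-0.44 to 0.46). No APS reductase was called, and the intervals of all 3 excluded a 2-fold change in either direction.

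Summed over the 3 isoforms, APS reductase held 934 reads in wild-type and 901 in mutant leaves (log2 ratio -0.11, -0.24 to 0.02). The make-up of this sum needs no scaling between libraries. APR2 gave 62.2% (59.0% to 65.3%) of APR reads in wild-type and 59.6% (56.3% to 62.8%) in mutant leaves. APR1 gave 28.9% and 30.7%, and APR3 gave 8.89% and 9.66%. The intervals of the shares overlapped between the libraries for each isoform.

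**Figure D2:**
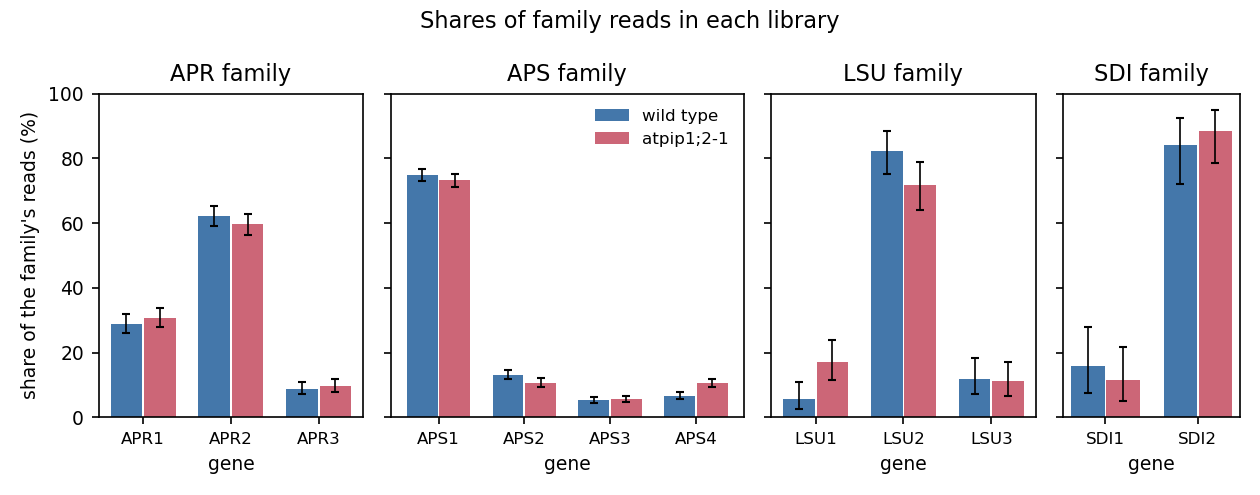
Share of each gene among the reads of its family (%) in the wild-type library (blue) and the atpip1;2-1 library (red) for APR1 to APR3, APS1 to APS4, LSU1 to LSU3, and SDI1 and SDI2; bars are single libraries and whiskers are 95% Clopper-Pearson intervals. The APR and SDI shares overlap between libraries, while LSU1 goes from 5.63% to 17.0% and APS4 from 6.67% to 10.5% without overlap.

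APS3, a plastid ATP sulfurylase, had 106 reads in wild-type and 118 in mutant leaves. These were levels of 26.6 CPM (21.8 to 32.2) and 28.5 CPM (23.6 to 34.1). The log2 ratio of 0.10 (-0.29 to 0.49) was not called. Its relatives were read more often. APS1, the main leaf isoform, stood at 378 and 374 CPM (-0.02, -0.12 to 0.09), and APS2, the isoform also found in the cytosol, at 66.3 and 54.6 CPM (-0.28, -0.54 to -0.02, adjusted p = 0.166). APS4 was the member of the family that differed, with 134 reads in wild-type and 223 in mutant leaves. Its level of 33.7 CPM (28.2 to 39.9) against 53.8 CPM (47.0 to 61.4) was 1.60-fold higher in the mutant library (log2 ratio 0.68, 0.36 to 1.00). The reads differed by the exact binomial test (adjusted p = 0.000259), but the ratio stayed under the 2-fold rule. This difference was lost in the edgeR exact test with an assumed coefficient of variation of 0.1. APS4 took 6.67% (5.62% to 7.85%) of the reads of APS1 to APS4 in wild-type and 10.5% (9.26% to 11.9%) in mutant leaves, whereas APS3 kept 5.27% (4.34% to 6.34%) and 5.57% (4.64% to 6.64%). The family sum, 2010 and 2117 reads, had a log2 ratio of 0.02 (-0.07 to 0.11).

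The messages of APS1, APS3 and APS4 and of the vascular sulfate transporter SULTR2;1 are known targets of miR395, so the sites are shown here to set this difference between isoforms beside the pairing. The 6 MIR395 loci of the RefSeq annotation (TAIR10.1) give 2 mature sequences, written with T as in the genome, 5' to 3', with the seed (bases 2 to 8) in capitals. The sites are on the messenger strand, and capitals mark bases that form A-T or G-C pairs with miR395a.
miR395a, miR395d and miR395e: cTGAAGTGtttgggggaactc
miR395b, miR395c and miR395f: cTGAAGTGtttggggggactc
APS3, minus strand of chr4:8414958-8414978: GAGTTCCtCCAAACtCTTCAt
APS1, plus strand of chr3:8113164-8113184: GAGTTCCtCCAAACtCTTCAt
APS4, minus strand of chr5:17591121-17591141: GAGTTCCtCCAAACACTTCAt
SULTR2;1, plus strand of chr5:3193268-3193288: aAGTTCtCCCAAACACTTCAa

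All 4 sites lie in coding sequence. The APS3 and APS1 sites are identical, with 18 of 21 bases so paired, the APS4 site has 19 and the SULTR2;1 site 18. Each of these sites has 1 further G-T pair (G-U in RNA), which is counted here as a mismatch. Among 38 genes of sulfate transport, activation, reduction and sulfation and the shortage markers, these 4 had at most 4 mismatches, and the next best had 6. Among the other members, APR1 and APR2 had 8 mismatches at their best window, APR3 and SDI1 had 9, and SDI2 and each LSU gene had 10. SULTR2;1 stood at 78.6 CPM in wild-type and 77.3 CPM in mutant leaves (log2 ratio -0.03, -0.25 to 0.20), so of the 4 messages with a site APS4 was the one whose reads differed by the exact test. When library sizes came from reads of 10 reference genes, APS1 differed too (log2 ratio 0.26). With an assumed coefficient of variation of 0.1 none of the 4 differed. A link between pairing and level was not tested. MIR395 transcripts are not analysed here.

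The LSU genes encode short coiled-coil proteins that bind other proteins and are strongly induced by sulfur shortage. LSU1 had 8 reads in wild-type and 26 in mutant leaves, 2.01 CPM (0.868 to 3.96) against 6.28 CPM (4.10 to 9.20). The level was 3.12-fold higher in the mutant library (1.37 to 7.98), a log2 ratio of 1.64 (0.46 to 3.00, adjusted p = 0.0329 by the exact binomial test). LSU3, its neighbour in locus order on chromosome 3, held as many reads in all but split them evenly, 17 and 17 (4.27 and 4.10 CPM, log2 ratio -0.06, -1.12 to 1.00). LSU2, the most abundant of the LSU genes, had 117 and 110 reads, 29.4 CPM (24.3 to 35.2) and 26.6 CPM (21.8 to 32.0), with a log2 ratio of -0.15 (-0.53 to 0.24). LSU1 was therefore called while LSU2 and LSU3 were not. The depth was too low to exclude a 2-fold change of LSU3, whereas the LSU2 interval did exclude it.

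LSU1 belongs to the sparsely read genes, where ratios spread more widely than among genes with more reads. For tested genes with 20 to 49 reads the upper decile of the log2 ratio was 0.81, below the 1.64 of LSU1. Of 2949 tested genes with 20 to 49 reads over both libraries, 38 were called higher (1.29%), and their median absolute log2 ratio was 0.40, against 0.23 for the 5229 genes with 200 or more reads. Of 6933 genes with at least 50 but under 200 reads 1.62% were called higher, and of those with 200 or more 0.899%. Spread between plants was not measured, and the LSU1 call was lost in the edgeR exact test when the biological coefficient of variation was set to 0.1 (adjusted p = 0.139) or 0.2 (adjusted p = 1).

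**Figure D3:**
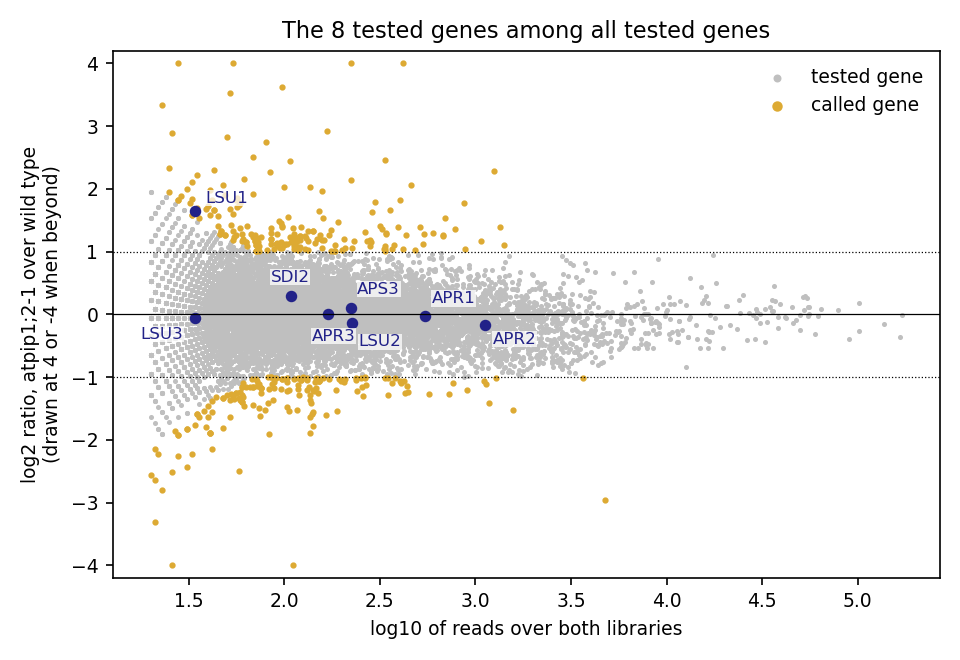
Log2 ratio (atpip1;2-1 over wild type) against log10 of the reads over both libraries for the 15111 tested genes (grey), with called genes in yellow and the 8 tested sulfur genes in dark blue; dotted lines mark a 2-fold difference. LSU1 lies among the called genes at the left edge, and the 7 others lie between -0.17 and 0.29.

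Within the LSU family LSU1 took 5.63% (2.46% to 10.8%) of the reads in wild-type and 17.0% (11.4% to 23.9%) in mutant leaves, a shift that does not depend on library scaling. LSU2 took 82.4% (75.1% to 88.3%) and 71.9% (64.1% to 78.9%), and LSU3 12.0% and 11.1%. The sum of the 3 genes was 142 and 153 reads (log2 ratio 0.05, -0.29 to 0.39). The fourth LSU gene, LSU4, a neighbour of LSU2 on chromosome 5, pointed the other way with 23 and 11 reads (5.78 and 2.66 CPM, log2 ratio -1.12, -2.31 to -0.03), but its adjusted p was 0.195 and it was not called. With LSU4 counted in, the family had 165 and 164 reads.

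Cross-counting between these relatives could be judged from exact sequence matches only, since the aligner and the treatment of multiply matching reads are not given. Coding sequences of LSU1 and LSU3 were 83.8% identical and those of LSU2 and LSU4 88.9%, but of the 30-base words in the last 300 bases of the messages, where reads of such libraries fall, LSU1, LSU3 and LSU4 shared none with another place in the genome and LSU2 shared 1 of 271, with LSU4. APR1 and APR3 shared 2 of 271 with each other. No annotated gene overlaps LSU1, LSU2, LSU3 or SDI1. Genes on the opposite strand overlap the others, and since the use of strand in counting is not given, their reads are uncertain to that extent. The counted ones were AT4G04614 over APR1 (39 reads in wild-type and 50 in mutant leaves), APG8A, an autophagy gene, over APR3 (111 and 170), AT1G62170 over APR2 (0 and 0) and VAMP726 over SDI2 (0 and 1). Among the relatives of APS3, AVA-P2 overlaps APS2 and had more reads than APS2 itself (603 and 843 against 264 and 226), so the APS2 values and the APS sum and shares are uncertain to that extent, and AT5G43770 overlaps APS4 (2 and 9 reads).

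The promoter windows were searched for letters linked to sulfur responses because LSU1 alone of its family was called. The core of the sulfur-responsive element, GAGAC, and a general form of the site bound by EIN3-like factors such as SLIM1, ATGNANCT, were looked up on both strands from 250 bases before to 50 bases after each RefSeq gene start. GAGAC occurred in 2 of the 9 windows (LSU2 and SDI1) and in 32.8% of all 27443 protein-coding windows. ATGNANCT occurred in 2 of 9 (LSU1 and LSU3) and in 14.8% of all. The matches upstream of the start in LSU1 and LSU4, both on the other strand, are shown for the LSU genes whose ratios lay farthest apart, 5' to 3' on the gene strand with the match in capitals.
LSU1, minus strand of chr3:18376039-18376063 (TAIR10.1): ttggtttaAGTTTCATataaaaaat
LSU4, minus strand of chr5:8441492-8441516 (TAIR10.1): cctacaatAGATTCATtagtaatat

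The match began 115 bases before the start in LSU1 and 144 in LSU4. LSU1 had the highest ratio of the LSU genes and LSU4, which was not called, the lowest. ATGNANCT also occurred 169 bases before the start of APK4, an APS kinase gene outside the members. GAGAC occurred 126 bases before the start of LSU4. A link between these letters and the levels was not tested. These are matches of letters in a window, and binding was not measured.

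SDI1 and SDI2 encode tetratricopeptide repeat proteins, and SDI1 restrains aliphatic glucosinolate synthesis during sulfur shortage. SDI1 had 9 reads in wild-type and 8 in mutant leaves, 2.26 CPM (1.03 to 4.29) and 1.93 CPM (0.834 to 3.81), too few to be tested. SDI2 had 48 and 61 reads, 12.1 CPM (8.89 to 16.0) and 14.7 CPM (11.3 to 18.9). Its log2 ratio of 0.29 (-0.28 to 0.87, adjusted p = 0.679 by the exact test) was the highest of the members after LSU1 and was not called. SDI2 gave 84.2% (72.1% to 92.5%) of the SDI reads in wild-type and 88.4% (78.4% to 94.9%) in mutant leaves.

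Per kilobase of the longest RefSeq message the order of levels was nearly the same in both libraries. In the wild type APR2 led with 71.2 CPM per kb, followed by LSU2 (35.7), APR1 (35.1), APS3 (13.7), APR3 (11.7), SDI2 (9.39), LSU3 (5.74), LSU1 (2.84) and SDI1 (1.86). In the mutant it ran APR2 (63.3), APR1 (34.6), LSU2 (32.3), APS3 (14.7), APR3 (11.8), SDI2 (11.5), LSU1 (8.87), LSU3 (5.52) and SDI1 (1.59). Neighbours whose intervals did not overlap were APR2 and the gene after it in both libraries, and APS3 and the gene before it in both. In the mutant SDI1 also lay apart from LSU3. The exchanges of LSU2 with APR1 and of LSU1 with LSU3 are between neighbours with overlapping intervals. Reads from 3' ends need not grow with message length, so this order can favour short messages such as those of the LSU genes.

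The other genes of sulfur metabolism show the setting of these values. In 55 such genes outside the 9, each counted once, 48 were tested, 2 were called higher and 0 lower, and 18 had a positive and 30 a negative log2 ratio, with a median of -0.05. In sulfate transport 0 of 9 tested genes were called. SULTR2;1, SULTR3;3 (191 and 212 reads) and SULTR3;1 (160 and 178 reads) were the most read, with log2 ratios of -0.03, 0.09 and 0.10. The root uptake transporter SULTR1;1, a sensitive marker of sulfur shortage, had no read in either library, which by the two-sided Poisson interval allows up to 0.927 CPM in wild-type and 0.891 CPM in mutant leaves. The one-sided limit of 3 reads that a count of 0 allows is lower, 0.754 and 0.724 CPM. SULTR4;2, which releases sulfate from the vacuole, had 18 and 14 reads.

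Sulfite reductase, SIR, the enzyme after APS reductase, stood at 118 CPM in wild-type and 110 CPM in mutant leaves (log2 ratio -0.10, -0.29 to 0.09). In the sulfation branch 1 of 9 tested genes was called. APK4, a plastid APS kinase, had 5 reads in wild-type and 20 in mutant leaves (1.26 and 4.83 CPM, log2 ratio 1.94, 0.49 to 3.71, adjusted p = 0.0410 by the exact test), a call that was likewise lost with an assumed coefficient of variation of 0.1 (adjusted p = 0.149). The abundant APS kinases APK2 (145 and 161 CPM, 0.15) and APK1 (87.9 and 93.2 CPM, 0.08) and the sulfotransferase SOT18 (94.2 and 92.7 CPM, -0.02) were not called. Set against the kinases, which use the same substrate, the APS reductases held 49.4% (47.2% to 51.7%) of the reads of both enzymes in wild-type and 45.4% (43.2% to 47.6%) in mutant leaves, intervals that just overlap.

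In cysteine synthesis 0 of 8 genes were called. OASB, the plastid O-acetylserine (thiol) lyase, was at 204 CPM in wild-type and 161 CPM in mutant leaves (log2 ratio -0.35, adjusted p = 7.29e-05 by the exact test), under 2-fold. The cytosolic OASA1 was at 376 and 362 CPM (-0.05), and the serine acetyltransferase SERAT2;2 at 98.5 and 90.8 CPM (-0.12). In glutathione and methionine synthesis 0 of 10 were called by the 2-fold rule, and the median was -0.14. By the exact test at any fold, 1267 of all 15111 tested genes were lower in the mutant library. Here the reads of 4 were lower by that test at smaller folds. All 4 differences were lost in the edgeR exact test with an assumed coefficient of variation of 0.1. They were the methionine synthases METS1 (861 and 634 CPM, -0.44) and METS2 (172 and 123 CPM, -0.48) and the S-adenosylmethionine synthetases SAM3 (291 and 255 CPM, -0.19) and MAT3 (197 and 148 CPM, -0.41). SAM1, of the same family as SAM3, was at 219 and 225 CPM (0.04).

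**Figure D4:**
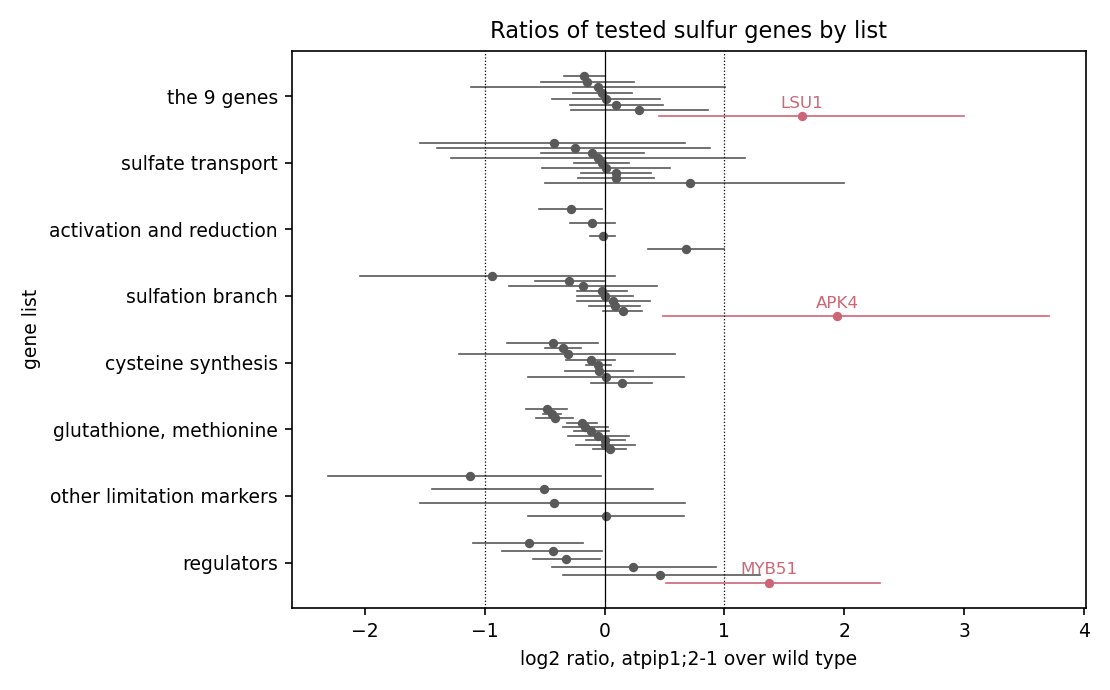
Log2 ratios (atpip1;2-1 over wild type) of the tested genes of each sulfur list, with 95% Clopper-Pearson intervals of counting error; called genes are red and named, dotted lines mark a 2-fold difference, and 2 genes of the other limitation markers also stand in another list. Called genes are LSU1 at 1.64, APK4 at 1.94 and MYB51 at 1.37, and no gene is called lower.

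None of the further markers of sulfur shortage was called. Of 7 genes 4 were tested, 1 with a positive ratio and 3 with a negative one, and their median log2 ratio was -0.46. SERAT3;1 had 41 and 43 reads (0.01), SHM7, a serine hydroxymethyltransferase induced by low sulfur, had 26 and 19 (-0.51), and LSU4 is given above. GGCT2;1, a glutathione-degrading enzyme among the strongest responders to sulfur shortage, had 7 reads in wild-type and 1 in mutant leaves, too few to be tested. BGLU28, a beta-glucosidase of the same response, had none in either library.

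Of the regulators 1 of 6 tested genes was called. MYB51, an activator of indole glucosinolate synthesis, had 16 reads in wild-type and 43 in mutant leaves (4.02 and 10.4 CPM, log2 ratio 1.37, 0.51 to 2.30, adjusted p = 0.0101 by the exact test), and this call was lost with an assumed coefficient of variation of 0.1 (adjusted p = 0.0969). MYB28, the activator of aliphatic glucosinolate genes that SDI1 binds, was at 59.0 and 47.3 CPM (-0.32, adjusted p = 0.131), MYB29 at 28.4 and 21.0 CPM (-0.43, adjusted p = 0.185) and MYB34 at 25.9 and 16.7 CPM (-0.63, adjusted p = 0.0404), all under 2-fold. SLIM1 had 23 and 33 reads (0.46) and HY5, a light-signalling factor that binds APR promoters, 35 and 43 (0.24).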

How the data were processed

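Read counts per locus, whole numbers with no normalization that the values show, were deposited as 1 file per genotype; TAIR9 is the build named in the submitters' processing notes. Per the labels' protocols, a company built 3' end cDNA libraries, which were sequenced on a Genome Analyzer II. The sources used here do not give the aligner, the counter, whether strand was used or how multiply matching reads were treated. A locus listed more than once with equal values was kept once.

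TMM factors of 0.976 (wild type) and 1.02 (mutant) scaled the libraries, from edgeR 4.0.16 under R 4.3.3. With 1 library per genotype no residual degrees of freedom exist, so the quasi-likelihood test could not be fitted. The reads of a gene went into an exact binomial test, two-sided (doubled smaller tail, the test that the Clopper-Pearson interval inverts), with Benjamini-Hochberg adjustment over 15111 genes with at least 20 reads. Levels carry Poisson intervals, shares Clopper-Pearson intervals. Reads carry no molecular identifiers, so both cover counting error only. The rule was also run on simulated counts that held counting error only, with no spread between plants. Changes were set there only in genes with more reads than LSU1, APK4 or MYB51, so that run does not cover calls at their depth.

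Named are all 9 members and, from each list, the called genes and up to 3 of the most read. APS4, SULTR1;1, SULTR4;2, SERAT2;1, METS2, SAM2, MAT3, GGCT2;1, BGLU28, SLIM1 and HY5 are named outside this rule, after their values were seen. Members and lists were chosen with earlier results of these data known. Message lengths, sequences and coordinates came from RefSeq TAIR10.1, matched by locus, and were not joined to the counts by position. Computation used Python 3.11.15, scipy 1.17.1, pandas 2.3.3 and Biopython 1.88. Alternatives were other library sizes (total counts, DESeq2 1.42.0 size factors, reads of 10 reference genes, totals leaving out organelle genes and the 20 genes with most reads), read minimums, folds, and the edgeR exact test with assumed coefficients of variation.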

Additional observations from a re-analysis of the deposited data

How the results depend on the processing

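LSU1 kept its call under all 4 other library sizes, with log2 ratios from 1.66 to 1.92, and lost it in the edgeR exact test with assumed coefficients of variation of 0.1 (1.63, adjusted p = 0.139) and 0.2 (1.63, adjusted p = 1), which leave 0 members called higher; no other member was called under any setting. The reference genes shifted all ratios by 0.28, a sum in which EF1A and GAPC2 weigh heavily; the other library sizes shifted them by at most 0.07. Signs near 0 turned with that: under total counts APR1 was at 0.050 and LSU3 at 0.013, under totals without organelle and abundant genes at 0.052 and 0.015, and under reference genes APR1 was at 0.26, APR2 at 0.11, LSU2 at 0.13, LSU3 at 0.22 and the APR sum at 0.17. The APS sum, positive under every library size, moved to 0.30 under reference genes. Over all genes 197 were called higher and 166 lower; 613 and 49 with reference genes, 111 and 77 with a coefficient of variation of 0.1, 15 and 3 with 0.2, 496 and 599 at 1.5-fold, and 868 and 1267 at any fold. SDI1 could be tested only with a lower read minimum and was not called (log2 ratio -0.23). With LSU4 in the family the LSU1 share stayed inside its interval in each library. The differences under 2-fold of APS4, OASB, METS1, METS2, SAM3, MAT3 and MYB34 were all lost with a coefficient of variation of 0.1. With reference genes, only those of APS4 and METS1 kept an adjusted p under 0.05 by the exact test, and SAM3 turned to 0.09. Those of SAM3 and MYB34 were also lost with total counts. With reference genes APS1, APK1, APK2, SERAT2;1, OASA1, SAM1, SAM2 and SULTR3;3 were higher by the exact test, with log2 ratios from 0.23 to 0.43. These genes did not differ with the main library sizes. APK2 also differed with total counts (0.22) and with totals without organelle and abundant genes (0.22). No paired analysis was possible because each genotype has 1 library. Depth limits LSU1, LSU3, SDI1 and APK4.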
